A study of Mus musculus with 18 samples.

Results

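A set of 8 genes that the BMP/SMAD pathway is known to switch on directly, ID1, ID2, ID3, ID4, SMAD6, SMAD7, ATOH8 and BAMBI, were followed in murine embryonic stem (ES) cells grown on PA6 stroma and in PA6 stroma alone. They were taken by their array names and all were kept, but the list was chosen with earlier results of these data known. They made up 8 of the 30854 gene names on the array. With BMP4 every one of the 6 members that could be tested was higher in PA6 mono-cultures, by 1.47 to 4.31 on the log2 scale for the 5 members detected in both groups. ATOH8, the other tested member, could be tested only because it was detected on arrays with a growth factor. None of the 6 passed the test in ES/PA6 co-cultures given the same BMP4, where 0.76% of all genes did. Still, 5 of the 6 had an unadjusted p below 0.05, against 10.9% of all genes. FGF2 split the members in the stroma: ID3 and ATOH8 were higher and ID4 was lower.

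The arrays covered 6 groups of 3 replicates at day 3 in serum-free medium. PA6 mono-cultures and ES/PA6 co-cultures each received no growth factor (-GFs), 20 ng/ml of recombinant FGF2 or 10 ng/ml of recombinant BMP4. The PA6 line is a mouse bone marrow stroma with adipocyte potential, and the ES line carried EGFP knocked in at the tau locus. The labels describe 1 well of each culture and condition per biological replicate. A BMP4 dose below that of the labels is given in the study's methods for a culture format with slides, so the dose is that of the labels here. RNA came from the whole well, so that the co-culture holds the RNA of both cell types. Of 45281 probes, 17125 to 18391 were detected on each array of PA6 mono-cultures, at a detection p below 0.05. On co-culture arrays it was 19365 to 20412, with no overlap between the cultures. All 7 markers of pluripotent ES cells on the array were detected on all co-culture arrays, and in PA6 mono-cultures only POU5F1 among them was detected on all arrays of a group. The summed level of 10 stromal markers was 17.1 to 17.4 on the log2 scale in PA6 mono-cultures and 15.7 to 16.4 in co-cultures.

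Bone morphogenetic proteins bind paired serine/threonine kinase receptors, which phosphorylate SMAD1, SMAD5 and SMAD9. These enter the nucleus with SMAD4 and bind GC-rich elements next to a set of early target genes. The ID proteins are helix-loop-helix factors without a DNA-binding region that hold E proteins and their partners away from DNA. SMAD6 and SMAD7 are inhibitory SMADs that act on the receptors, BAMBI is a pseudoreceptor that lacks the kinase domain, and ATOH8 is a basic helix-loop-helix factor. In stroma and in ES cells alike, the level of these transcripts is commonly read as the strength of BMP signaling.

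Since the members moved together in BMP4-treated stroma, their promoters were searched for letters known from BMP response elements. RefSeq sequence (GRCm38.p6) was searched for 5 of the 8 members. Id1 had no sequence at hand, and Smad7 and Bambi were left out of the search. Each window has 260 bases, from 250 bases before the transcription start to 10 bases after it. Those with a match are printed on the strand of the gene, with the matches in capitals. The letters searched on both strands were GGCGCC, which BMP-activated SMADs are known to bind. Its close variant GGAGCC was searched as well. On the opposite strand that variant is spelled GGCTCC. The SMAD-binding palindrome GTCTAGAC was the last of the motifs. None of the matches printed overlap.
Id2, chr12:25096083-25096342, minus strand: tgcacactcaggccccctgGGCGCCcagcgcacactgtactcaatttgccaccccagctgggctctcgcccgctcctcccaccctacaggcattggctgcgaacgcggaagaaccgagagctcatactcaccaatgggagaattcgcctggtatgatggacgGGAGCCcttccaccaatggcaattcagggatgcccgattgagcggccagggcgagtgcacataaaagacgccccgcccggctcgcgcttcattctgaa
Id3, chr4:136143572-136143831, plus strand: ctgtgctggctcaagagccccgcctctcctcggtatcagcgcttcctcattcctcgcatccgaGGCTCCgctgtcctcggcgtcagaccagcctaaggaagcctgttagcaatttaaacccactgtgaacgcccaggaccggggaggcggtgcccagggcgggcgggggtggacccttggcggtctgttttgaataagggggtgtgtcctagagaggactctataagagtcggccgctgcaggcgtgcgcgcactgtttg
Id4, chr13:48260866-48261125, plus strand: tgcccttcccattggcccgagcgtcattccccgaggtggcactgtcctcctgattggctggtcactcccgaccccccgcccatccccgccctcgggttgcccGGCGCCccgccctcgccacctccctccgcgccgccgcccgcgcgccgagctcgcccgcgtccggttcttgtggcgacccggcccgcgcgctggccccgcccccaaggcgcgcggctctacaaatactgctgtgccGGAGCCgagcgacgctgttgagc
Smad6, chr9:64022050-64022309, minus strand: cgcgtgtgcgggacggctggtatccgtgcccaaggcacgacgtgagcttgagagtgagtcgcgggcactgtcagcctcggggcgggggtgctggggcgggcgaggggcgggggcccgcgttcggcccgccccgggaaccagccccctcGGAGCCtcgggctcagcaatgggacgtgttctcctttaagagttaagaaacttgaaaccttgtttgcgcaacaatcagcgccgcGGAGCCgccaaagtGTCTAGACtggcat
Counted from the start site, GGCGCC began at position -231 in Id2 and at -148 in Id4. It was present in 9.96% of 32851 mouse promoter windows of the same length. GGAGCC, which 26.8% of all windows held, began at position -88 in Id2, -187 in Id3 and -13 in Id4, and at both -102 and -18 in Smad6. The palindrome spanned the start site of Smad6, from position -4 to position 4, and was present in 0.177% of windows. Atoh8 (chr6:72235568-72235827, minus strand) held none of these letters in its window. The 5 windows searched held 61.5% to 75.0% G and C, and the shares over all windows were not matched for that content. A match only describes the sequence, since no binding was measured here.

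Each gene was read by 1 probe, the brightest on average where there were several, as normalized log2 intensity. A gene was called at a log2 difference above 1 with an adjusted p below 0.1 over all 16446 genes tested (limma). All 6 tested members were called higher with BMP4 in PA6 mono-cultures, where 0.839% of all genes were. ATOH8 was kept for testing only through its detection on arrays with a growth factor, so its place among the 6 depended on its rise. It was called without the detection filter as well. SMAD7 and BAMBI, detected on no array, are not among the 6. In all 6 the BMP4 arrays lay above every -GFs array, which held for 11.1% of all genes. The median difference was 2.46 over the members and 0.01 over all genes. PA6 mono-cultures with BMP4 were also the highest of the 6 groups for each of the 6 members, and their arrays did not overlap those of the group next in order.

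**Figure D1:**
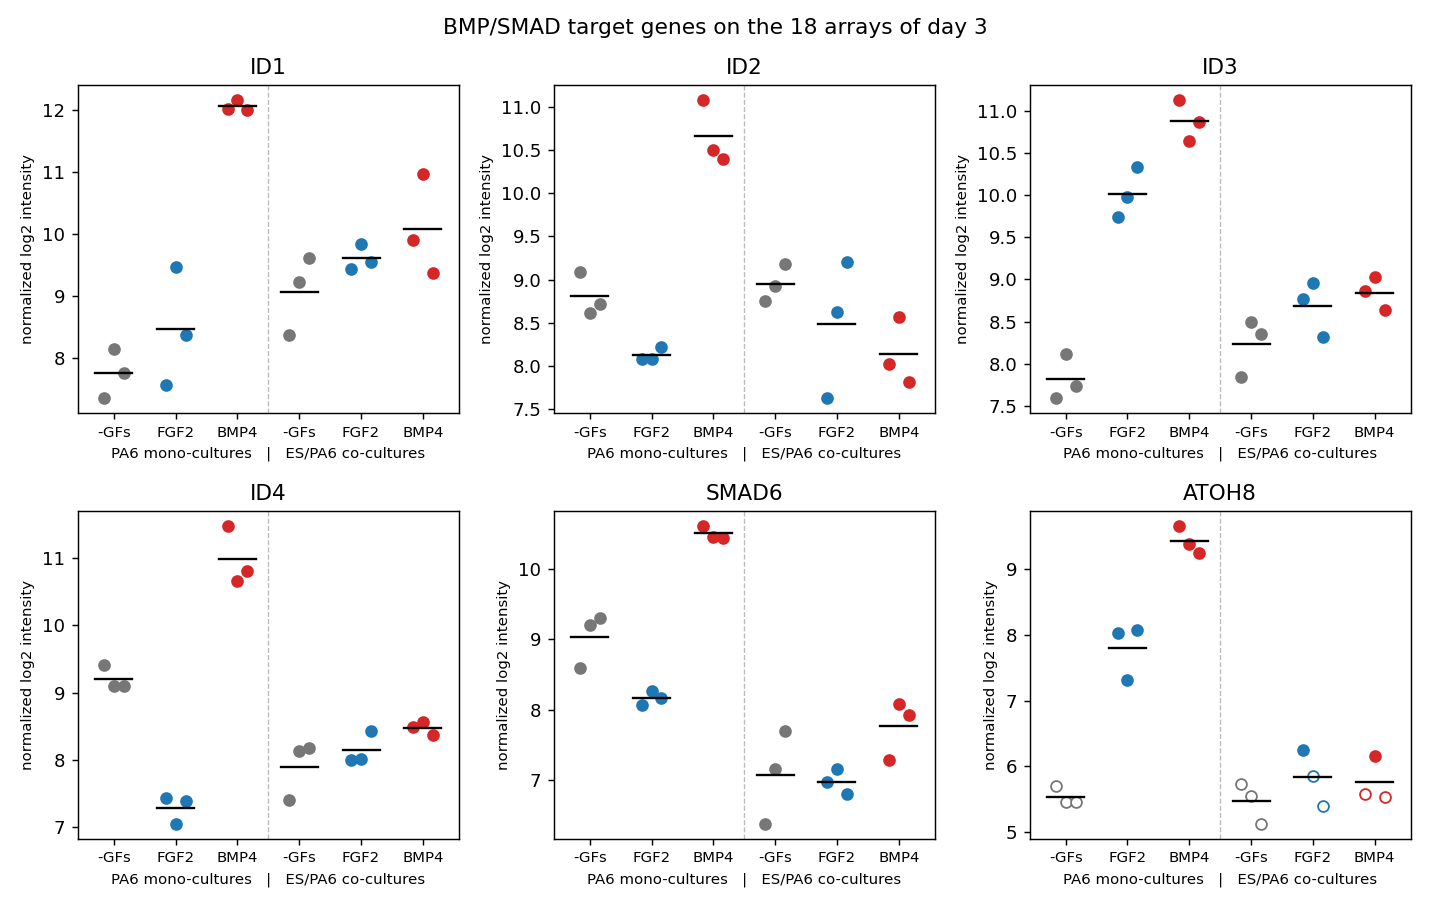
Normalized log2 intensity (y axis) of the 6 tested members on each of the 18 arrays, with 1 point per array, open where the probe was not detected, and a bar at the mean of each group. The 3 PA6 arrays with BMP4 lie above the other 15 in every panel, and each panel has its own y axis.

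ID1 (ILMN_2672190) had the largest difference among the members that were detected in every group. Its log2 level was 7.35, 8.15 and 7.76 on the 3 PA6 arrays without growth factors, 7.56, 9.46 and 8.38 with FGF2, and 12.02, 12.16 and 12.00 with BMP4. The BMP4 arrays were close to each other and far above the rest, while FGF2 and -GFs overlapped. BMP4 raised ID1 from 7.75 ± 0.398 to 12.06 ± 0.0863 (SD, n = 3), by 4.31 ± 0.437 (SE), which is 19.8-fold (adjusted p 8.72e-05). In co-cultures ID1 stood at 8.37, 9.21 and 9.61 without growth factors, at 9.43, 9.83 and 9.55 with FGF2, and at 9.90, 10.96 and 9.36 with BMP4. Here all 3 groups overlapped, with 1 of the BMP4 arrays below the highest -GFs array. The BMP4 difference was 1.01 ± 0.437 (95% confidence interval 0.09 to 1.94, adjusted p 0.396). Within the replicate sets it was 1.53, 1.75 and -0.25, so the sets did not share a direction.

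ID3 (ILMN_2687169) answered to both factors in the stroma. PA6 arrays read 7.59, 8.12 and 7.73 without growth factors, 9.75, 9.98 and 10.33 with FGF2, and 11.13, 10.65 and 10.87 with BMP4. The groups formed 3 steps with no overlap between them. The rise was 3.07 ± 0.219 with BMP4 (8.38-fold, adjusted p 1.03e-06) and 2.20 ± 0.219 with FGF2 (4.61-fold, adjusted p 4.08e-06). The step from FGF2 to BMP4, 0.86 with an adjusted p of 0.013, was short of the fold threshold. Co-culture arrays read 7.84, 8.49 and 8.36 without growth factors, 8.77, 8.95 and 8.32 with FGF2, and 8.86, 9.03 and 8.64 with BMP4. All BMP4 arrays lay above all -GFs arrays, and FGF2 overlapped both groups. The BMP4 difference was 0.62 ± 0.219 (95% confidence interval 0.15 to 1.08, adjusted p 0.261), with 1.02, 0.54 and 0.29 within the replicate sets.

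ID2 (ILMN_1228557) was the member whose co-culture value had the opposite sign. It read 9.09, 8.62 and 8.72 on PA6 arrays without growth factors, 8.08, 8.08 and 8.22 with FGF2, and 11.08, 10.50 and 10.39 with BMP4. The 3 groups did not overlap, with FGF2 lowest and BMP4 highest. BMP4 raised ID2 by 1.85 ± 0.308 (3.61-fold, adjusted p 0.00358), and the FGF2 difference was -0.68 ± 0.308 (adjusted p 0.172). In co-cultures the values were 8.75, 8.93 and 9.18 without growth factors, 7.63, 8.62 and 9.20 with FGF2, and 8.02, 8.57 and 7.81 with BMP4. The 3 BMP4 arrays all lay below the 3 -GFs arrays, and the FGF2 arrays were spread over the range of both. The BMP4 difference was -0.82 ± 0.308 (95% confidence interval -1.47 to -0.17, adjusted p 0.304), negative in each replicate set (-0.73, -0.36 and -1.37).

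ID4 (ILMN_2678714) was raised by BMP4 and lowered by FGF2 in the stroma. Its PA6 arrays read 9.41, 9.10 and 9.11 without growth factors, 7.43, 7.05 and 7.39 with FGF2, and 11.48, 10.67 and 10.81 with BMP4. FGF2 lay below and BMP4 above the -GFs arrays, with no overlap. ID4 rose by 1.78 ± 0.225 with BMP4 (3.44-fold, adjusted p 0.000471) and fell by 1.91 with FGF2 (SE 0.225, 3.76-fold, adjusted p 2.42e-05). On co-culture arrays ID4 was at 7.41, 8.13 and 8.18 without growth factors, 8.00, 8.02 and 8.43 with FGF2, and 8.49, 8.56 and 8.37 with BMP4. The BMP4 arrays lay just above all -GFs arrays, and FGF2 overlapped both. The differences were 0.57 ± 0.225 for BMP4 (95% confidence interval 0.09 to 1.05, adjusted p 0.343) and 0.24 ± 0.225 for FGF2 (adjusted p 0.667).

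Further probes of Id2 and Id4 were read beside these. A second ID2 probe (ILMN_2887239) was detected on 6 of 18 arrays only, among them all 3 PA6 arrays with BMP4 and 1 of 3 without growth factors. The array also holds 1 probe each under the older names IDB2 (ILMN_1236868, Id2) and IDB4 (ILMN_1232416, Id4), and both were detected on all 18 arrays. IDB2 read 8.89, 9.22 and 9.03 on PA6 arrays without growth factors and 11.40, 11.32 and 11.10 with BMP4. IDB4 read 8.61, 8.22 and 8.79 without growth factors, 6.35, 6.60 and 6.85 with FGF2 and 10.61, 10.18 and 10.73 with BMP4. None of these groups overlapped. BMP4 raised IDB2 by 2.23 ± 0.423 (adjusted p 0.00902) and IDB4 by 1.96 ± 0.286 (adjusted p 0.00132). The second ID2 probe differed by 1.51 ± 0.269 (adjusted p 0.00639 over all kept probes), a fitted value whose -GFs side lies mostly at background. With FGF2, IDB4 fell by 1.94 (adjusted p 0.000193) and the IDB2 difference was -0.82 (adjusted p 0.243). In BMP4-treated co-cultures IDB2 was at -0.62 and IDB4 at 0.47, with no call, and the second ID2 probe was detected on none of the 3 arrays.

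**Figure D2:**
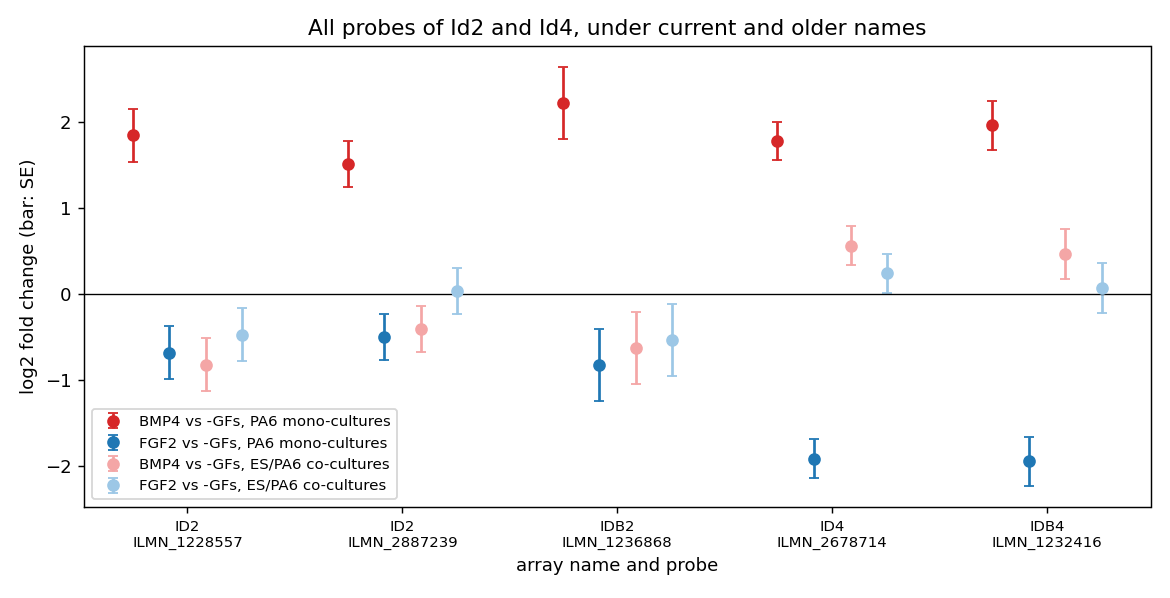
Log2 fold change (y axis, bars are SE) at each of the 5 probes of Id2 and Id4 (x axis, array name and probe), for BMP4 and FGF2 against -GFs in PA6 mono-cultures (dark) and ES/PA6 co-cultures (pale). BMP4 in PA6 mono-cultures lies between 1.78 and 2.23 at the 4 probes detected on all arrays of both groups. The second ID2 probe, at 1.51, was detected on 1 of 3 arrays without growth factors. FGF2 lies at -1.91 and -1.94 at the 2 probes of Id4.

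SMAD6 (ILMN_3008748), the inhibitory SMAD that is measured here, followed the order of ID4 in the stroma. Without growth factors its PA6 arrays read 8.60, 9.21 and 9.30, against 8.06, 8.27 and 8.17 with FGF2 and 10.61, 10.45 and 10.44 with BMP4. These groups did not overlap. SMAD6 rose by 1.47 ± 0.275 with BMP4 (2.76-fold, adjusted p 0.00854), while the FGF2 difference of -0.87 ± 0.275 had an adjusted p of 0.0442 and was too small to be called. The co-culture arrays read 6.38, 7.16 and 7.70 without growth factors, 6.97, 7.16 and 6.81 with FGF2, and 7.29, 8.09 and 7.93 with BMP4. The BMP4 arrays lay above all FGF2 arrays and overlapped those without growth factors. The BMP4 difference was 0.69 ± 0.275 (95% confidence interval 0.11 to 1.27, adjusted p 0.345), positive in each replicate set (0.91, 0.93 and 0.23).

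ATOH8 (ILMN_2638548) went from undetected to clearly detected in the stroma. On PA6 arrays its raw intensity was 140, 116 and 131 without growth factors (none detected), 380, 199 and 300 with FGF2, and 852, 786 and 788 with BMP4 (detected on all 6). The normalized log2 levels with FGF2 were 8.03, 7.31 and 8.08, and with BMP4 they were 9.66, 9.38 and 9.25. The 3 groups did not overlap. Because the -GFs arrays give only a bound, ATOH8 was higher by at least 8.75-fold in the BMP4 group (adjusted p 4.08e-07) and by at least 2.84-fold in the FGF2 group (adjusted p 1.2e-05). These bounds depend on the scaling: without background correction they were 4.48-fold and 1.84-fold, and with median scaling 10.0-fold and 2.87-fold, with both calls kept. In co-cultures it was detected on none of the 3 arrays without growth factors, on 1 of 3 with FGF2 and on 1 of 3 with BMP4. The raw intensities there were 167, 135 and 111 without growth factors, 201, 154 and 124 with FGF2, and 153, 184 and 130 with BMP4, so all groups overlapped near background.

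SMAD7 (ILMN_2759660) and BAMBI (ILMN_2774722) could not be assessed. SMAD7 had a raw intensity of 78.8 to 116 and BAMBI of 77.7 to 136, and neither was detected on any of the 18 arrays. Each has 1 probe, so these values set no level for the transcript, and neither gene was tested.

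The response of the co-cultures was compared with that of the stroma directly. With BMP4, none of the 6 tested members was called in co-cultures by limma, where 0.76% of all genes were. With 6 members that lack of a call cannot be told apart from that share. At an unadjusted p below 0.05 there were 5 of 6, against 10.9% of all genes. ID3 and ID4 lay above the -GFs arrays without overlap (6.06% of all genes did) and ID2 below them (6.97%). With replicate sets fitted as a block in each culture, limma gave lower adjusted p for BMP4 in co-cultures. They were 0.155 for ID1, 0.129 for ID2, 0.147 for ID3, 0.107 for ID4, 0.137 for SMAD6 and 0.544 for ATOH8. Again no member was called, where 0.541% of all genes were called higher and 0.766% lower. The co-culture difference minus the PA6 difference was -3.29 ± 0.618 for ID1 (adjusted p 0.033), -2.67 ± 0.435 for ID2 (adjusted p 0.0118) and -2.45 ± 0.309 for ID3 (adjusted p 0.00141). For ATOH8 it was -3.61 ± 0.352 (adjusted p 0.00018), a fitted value that rests on undetected -GFs arrays in both cultures. These 4 members were called lower, against 0.31% of all genes. The difference was -1.22 ± 0.319 for ID4 (adjusted p 0.145) and -0.78 ± 0.389 for SMAD6 (95% confidence interval -1.60 to 0.05, adjusted p 0.548). When replicate sets were fitted as a block in each culture, ID4 was called too (adjusted p 0.0308), where 1.03% of all genes were called lower. With a block shared by both cultures it was not (adjusted p 0.128). In whole-well RNA, fewer cells of a type and less RNA per cell cannot be told apart. The stromal markers were lower in co-cultures, with 8 of 10 called lower without growth factors, where 19.5% of all genes were. The part of cell numbers and of RNA per cell in the smaller differences was not tested.

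**Figure D3:**
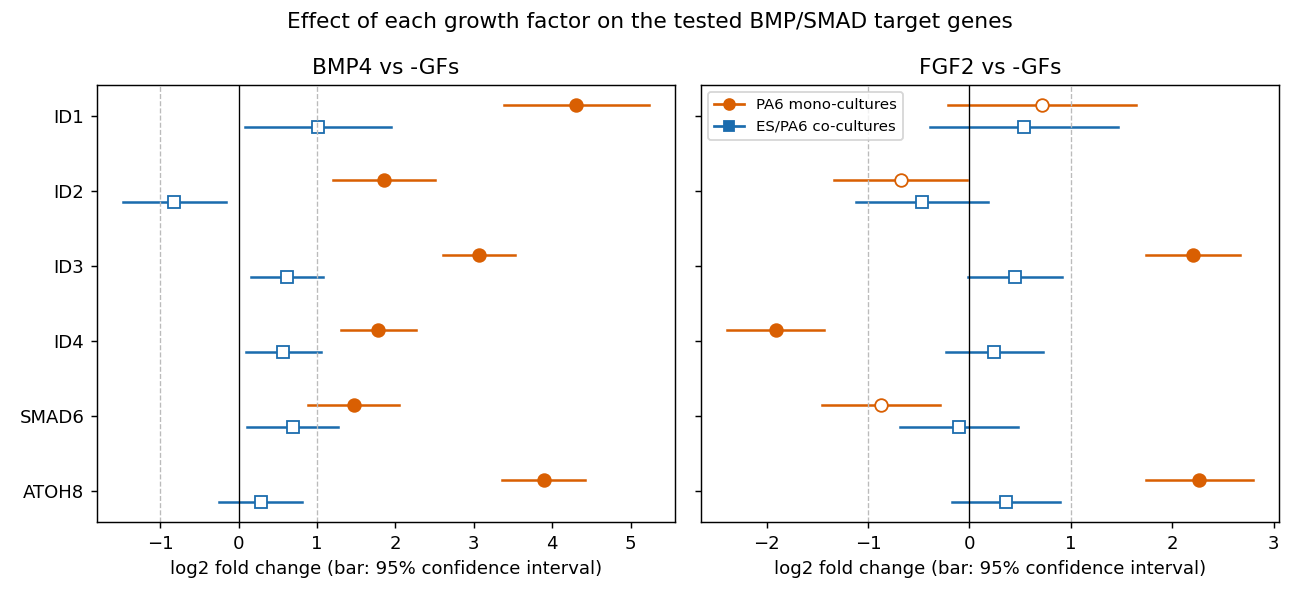
Log2 fold change (x axis) of the 6 tested members (y axis) with BMP4 and with FGF2 against -GFs, in PA6 mono-cultures (circles) and ES/PA6 co-cultures (squares), with 95% confidence intervals. Filled symbols were called and dashed lines mark a log2 fold change of 1. All 6 members are called with BMP4 in PA6 mono-cultures and no square is filled. The ATOH8 points are fitted values against undetected -GFs arrays.

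FGF2 did not move the members as a set. In PA6 mono-cultures ID3 and ATOH8 were called higher (2.71% of all genes were) and ID4 lower (2.56%), and the median difference over the 6 members was 0.02. The FGF2 arrays lay below all -GFs arrays for ID2, ID4 and SMAD6 (17.5% of all genes) and above them for ID3 and ATOH8 (16.2%). ID1 was at 0.71 ± 0.437 (adjusted p 0.341), with 0.21, 1.31 and 0.62 within the replicate sets. Without the first FGF2 replicate ID1 reached 1.16 and was called (adjusted p 0.097), and without the first -GFs replicate SMAD6 was called lower (-1.09). In co-cultures with FGF2 limma called no member, against 3.34% of all genes, and 0 had an unadjusted p below 0.05, against 17.8%. With 6 members these counts cannot be told apart from those shares. Co-culture differences ran from -0.47 for ID2 to 0.54 for ID1. The FGF2 difference itself was unequal between the cultures for 3 members: it was lower in co-cultures for ATOH8 (-1.91 ± 0.352, adjusted p 0.00257) and ID3 (-1.75 ± 0.309, adjusted p 0.00184), where 3.4% of all genes were called, and higher for ID4 (2.15 ± 0.319, adjusted p 0.000467), where 3.99% were. The ATOH8 value is again a fitted one that rests on undetected arrays in both cultures, and it was -1.05 without background correction. IDB4 gave 2.02 ± 0.405 (adjusted p 0.00461).

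**Figure D4:**
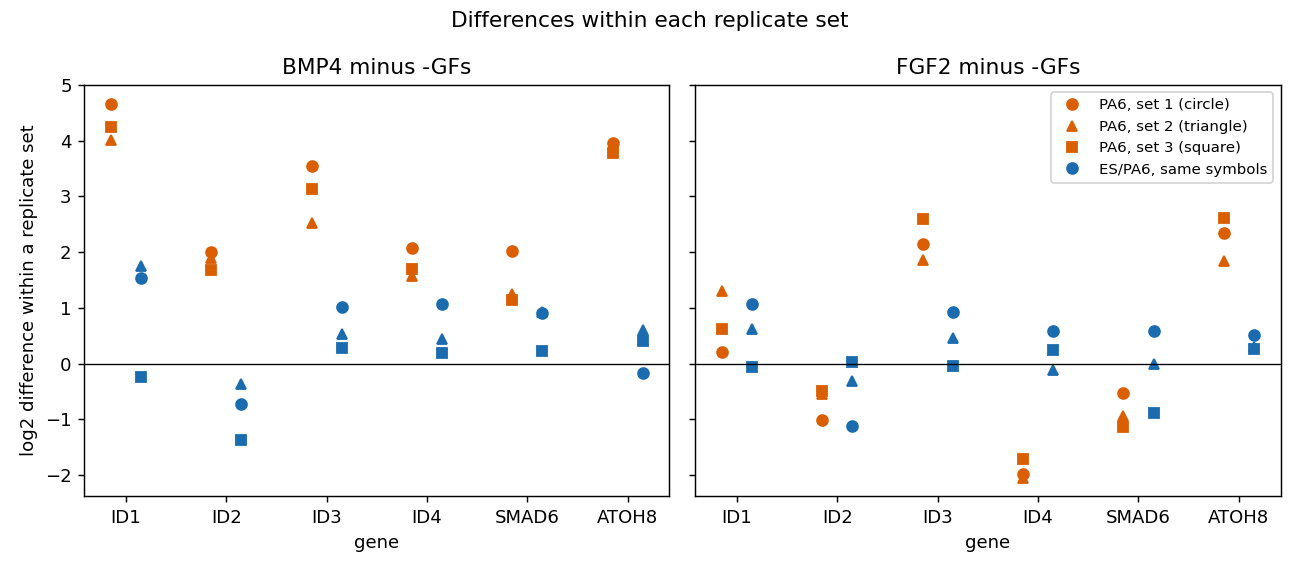
Log2 difference from -GFs within each replicate set (y axis) for the 6 tested members (x axis), with BMP4 and with FGF2. Symbols mark the set and colors the culture. In PA6 mono-cultures all sets are above 0 with BMP4 for all members, and ID4 lies between -2.04 and -1.71 with FGF2. In co-cultures with BMP4 the ID1 sets fall on both sides of 0.

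Set against each other, FGF2 and BMP4 differed most in the stroma. There 5 of 6 members were called lower with FGF2 than with BMP4, against 2.94% of all genes: ID4 (-3.69), ID1 (-3.59), ID2 (-2.53), SMAD6 (-2.34) and ATOH8 (-1.62), with adjusted p of 0.000243 or less. All 6 lay below the BMP4 arrays without overlap, which 17.7% of all genes did. In co-cultures no member was called in this comparison by limma (2.85% of all genes were), and 1 member had an unadjusted p below 0.05 (17.4% of all genes had). With 6 members these counts cannot be told apart from those shares. The 1 member was SMAD6, at -0.79 ± 0.275 (adjusted p 0.124), whose FGF2 arrays lay below the BMP4 arrays, as in 9.1% of all genes. With the replicate block in each culture limma gave SMAD6 an adjusted p of 0.0485, and the difference stayed short of the fold threshold. Without the first BMP4 replicate SMAD6 was called (-1.03, adjusted p 0.0528). These comparisons share arrays with those against -GFs.

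The cultures also differed before any factor was added. Without growth factors ID1 was higher in co-cultures than in PA6 mono-cultures, by 1.31 ± 0.437 (2.48-fold, adjusted p 0.0142). SMAD6 (-1.95 ± 0.275, adjusted p 9.58e-06) and ID4 (-1.30 ± 0.225, adjusted p 8.46e-05) were lower, with -1.32 at IDB4. ID2 (0.15, with -0.74 and no call at IDB2), ID3 (0.41) and ATOH8, undetected in both, were not called. In this comparison 39% of all genes were called, 19.4% higher and 19.5% lower, and the median of all genes was -0.11. With 6 members, 1 call higher and 2 lower cannot be told apart from these shares. Co-culture RNA holds both cell types, which this comparison does not separate.

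In the order of the 6 group means the members formed different sequences below PA6 mono-cultures with BMP4. ID3 and ATOH8 had PA6 mono-cultures with FGF2 next, apart from the group after it. For ID4 and SMAD6 the next was PA6 mono-cultures without growth factors, again apart from the one below. The 3 co-culture groups came next for ID1, without separation between neighbors, and for ID2 the remaining 5 groups overlapped from one to the next. The lowest mean was that of PA6 mono-cultures with FGF2 for ID2 and ID4 and of co-cultures with FGF2 for SMAD6, each overlapping the group above it.

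Likeness over the 18 arrays, after the mean of each culture was taken off, followed this split. ID3 and ATOH8 were most like each other (r 0.94), and both had POR next (0.92 and 0.93). Taken apart, ID3 and ATOH8 were at 0.97 over the 9 PA6 arrays and 0.48 over the 9 co-culture arrays, where ATOH8 was near background and ID3 was closer to ID1 (0.82). ID2 was most like IDB2 (0.96), then SMPD3 (0.92) and HEY1 (0.90). For ID4 the order was IDB4 (0.97), LOC670044 (0.95) and CITED2 (0.95), and for SMAD6 it was TMEM45A (0.96), LOC670044 (0.95) and CSRP1 (0.94). ID1 was most like 6330505N24RIK (0.94), IRF5 (0.90) and OSGEP (0.90). The points share their arrays and the same 6 groups, so these values only describe the pattern.

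The other genes of the pathway were counted by their role. Of 13 tested receptors, SMADs and regulators, limma called none with BMP4 in PA6 mono-cultures, against 1.41% of all genes, and 4 had an unadjusted p below 0.05, against 12.6%. In co-cultures BMP4 lowered RGMA, a BMP co-receptor, from a log2 level of 9.41 ± 0.412 to 8.21 ± 0.246 (SD, n = 3; difference -1.20, adjusted p 0.00628). FGF2 raised BMPR2, the type II receptor, in PA6 mono-cultures by at least 1.43-fold. Among 3 tested ligands, BMP4 mRNA was lower in BMP4-treated PA6 mono-cultures at the brighter probe (-1.02, adjusted p 0.0471), and its other probe gave 0.00. With FGF2 in co-cultures that other probe gave 1.06 (adjusted p 0.0252 over all kept probes). The brighter probe gave 0.55 there, with no call (adjusted p 0.279). Among 10 tested antagonists, BMP4 raised GREM1 by at least 2.33-fold (adjusted p 0.0145) and lowered NBL1 (-1.04, adjusted p 0.0459, and -0.82 with no call at its other probe), and FGF2 raised FSTL3 by 1.35. All 3 of these antagonists were called in PA6 mono-cultures, where 1.41% of all genes were with BMP4 and 5.27% with FGF2. In co-cultures limma called none of the 10 with either factor, against 0.76% of all genes with BMP4 and 3.34% with FGF2. There 2 had an unadjusted p below 0.05 with each factor, against 10.9% and 17.8%. So few genes cannot be told apart from these co-culture shares.

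Of 11 other genes known to respond to BMP, 3 were called with BMP4 in the stroma, all of them higher (0.839% of all genes were). These were HEY1, a repressor of the HES family, which rose by 3.16 ± 0.380 from 6.58 to 9.74 (adjusted p 0.000331), TNFRSF11B, the decoy receptor osteoprotegerin (2.18 ± 0.224, adjusted p 8.72e-05), and the zinc finger repressor SNAI2 (1.39 ± 0.216, adjusted p 0.00213). The median over the 11 was 0.69, and 7 had an unadjusted p below 0.05 by limma, against 12.6% of all genes. With BMP4 in co-cultures 2 other genes of the list were called higher, where 0.31% of all genes were. Both are transcription factors, DLX1 (1.54, adjusted p 0.0741) and TBX3 (1.13, adjusted p 0.02, but 0.43 with an adjusted p of 0.32 at its other probe). The median over the 11 was 0.60 in co-cultures, and 6 had an unadjusted p below 0.05 by limma, against 10.9% of all genes. HEY1 was at 0.10 there, and its difference between the cultures was -3.06 ± 0.538 (adjusted p 0.0219). In that comparison TNFRSF11B was also called lower (-1.56, adjusted p 0.0521), and TBX3 higher at its brighter probe (1.34, adjusted p 0.0763). Of all genes 0.31% were called lower and 0.249% higher. With FGF2 in the stroma JUNB (2.22) and TNFRSF11B (1.69) rose and HEY1 fell by at least 1.24-fold, to undetected. DLX1 (1.70) and TBX3 (2.75) rose with FGF2 in co-cultures, TBX3 with 1.41 at its other probe, where 2.14% of all genes were called higher.

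E proteins, the partners that ID proteins bind, were not called with either factor against -GFs in either culture (4 names tested by limma). Of all genes, BMP4 called 1.41% in PA6 mono-cultures and 0.76% in co-cultures, and FGF2 called 5.27% and 3.34%. With 4 names the lack of a call therefore says little about E proteins. At an unadjusted p below 0.05 there was 1 with BMP4 in each culture, against 12.6% of all genes in PA6 mono-cultures and 10.9% in co-cultures. With FGF2 there were 2 in PA6 mono-cultures, against 26% of all genes, and 0 in co-cultures, against 17.8%. With BMP4 their median difference was -0.21 in PA6 mono-cultures and -0.39 in co-cultures. The name TCF3 on this array may stand for either of 2 genes.

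Early FGF response genes were read as a check of the FGF2 arrays. In PA6 mono-cultures FGF2 raised 4 of 9, DUSP6 (2.39), PHLDA1 (2.56), IER3 (1.22) and ETV5 (at least 3.92-fold), against 2.71% of all genes, and lowered EGR1 (-2.16). The other probes of DUSP6 gave 2.17 and 0.77, the latter short of the fold threshold, and that of ETV5 gave 1.67. In co-cultures limma called none of the 9, against 3.34% of all genes, and 1 had an unadjusted p below 0.05, against 17.8%. With 9 genes these counts cannot be told apart from those shares. DUSP6 and ETV5 were already higher without growth factors than in PA6 mono-cultures, by 3.75 and at least 41.4-fold. BMP4 raised PHLDA1 in PA6 mono-cultures (1.32, adjusted p 0.0126).

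Markers of adipocytes, a fate open to PA6 cells, moved with the same conditions. The summed level of 6 tested markers was 13.3 to 13.7 on the log2 scale in PA6 mono-cultures without growth factors, 10.6 to 10.8 with FGF2 and 14.7 to 15.9 with BMP4. BMP4 raised 2 of the 6 (0.839% of all genes were called higher) and FGF2 lowered 4 (2.56% were called lower), and CIDEC was undetected with FGF2. PLIN was undetected there and also without growth factors. In co-cultures the sums were 11.2 to 12.2, 10.7 to 10.9 and 12.6 to 14.8. BMP4 raised 2 of the 6 in co-cultures too (0.31% of all genes were called higher), and FGF2 lowered 1 (1.2% were called lower). The median BMP4 difference over the 6 markers was 1.76 in co-cultures and 1.46 in PA6 mono-cultures. The part of such cells in the members' levels was not tested.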

How the data were processed

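Total RNA of both kinds of culture at day 3 was labelled and hybridized to MouseWG-6 v2.0 BeadChips, which are single-color arrays of 45281 probes. The authors deposited the intensity of each probe on each of the 18 arrays, not normalized, with its detection p. The submitters' processing notes name GenomeStudio 2011.01. The cubic spline normalization that the study's methods describe was not in these values and was run as an alternative. Columns were matched to samples by name, and 5 stray lines were left out.

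Intensities were background corrected and quantile normalized with neqc of limma 3.58.1 (R 4.3.3, offset 16). Probes detected at p below 0.05 on at least 3 arrays were kept (22987), and the brightest probe stood for a gene (16446). A linear model of 6 group means over all 18 arrays was fitted with limma, with Benjamini-Hochberg adjustment over all genes, and called at an adjusted p below 0.1 with a log2 difference above 1. Adjusted p for IDB2 and IDB4 come from the same fit over genes, and for the second ID2 probe from the fit over probes. The tests were run on simulated data first. An exact permutation test of 3 against 3 could not go below 0.1, so none was used. Where no separate culture is stated beyond 1 well per biological replicate, p-values measure only the spread between these samples. No 2 arrays held identical values, and precision is limited by the number of arrays. A bound (at least N-fold) sets the detected group against the higher of the dimmest detected signal and the probe's own value on each array of the undetected group.

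The labels tie the replicate numbers to a biological replicate with wells of every condition. Deviations from group means correlated at 0.0628 to 0.164 over 9 same-numbered pairs of PA6 arrays, at 0.325 to 0.521 over 9 pairs of co-culture arrays and at -0.025 to 0.175 over 27 pairs across cultures, so the block was set within each culture. Further alternatives changed the normalization, the detection filter, the choice of probe, the samples in the fit, the variance model and the thresholds, or left out each array in turn. Motifs were searched in RefSeq promoter windows. Members and lists were chosen with earlier results of these data known. Every member was named, list genes were named where called against -GFs, and the 3 most alike genes were named for each tested member. IDB2, IDB4 and TCF3 are names of the array's design, and the first 2 were matched as synonyms in RefSeq. Neural, endothelial and mesoderm markers were read as well, and their values are not given here.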

Additional observations from a re-analysis of the deposited data

Results flagged for a closer look

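The effect of a growth factor on a member differed between co-cultures and stroma alone, by limma's interaction term, in 7 cases. With BMP4 the log2 difference was smaller in co-cultures than in PA6 mono-cultures for ATOH8 (-3.61), ID1 (-3.29), ID2 (-2.67) and ID3 (-2.45). ATOH8 was undetected without growth factors in both cultures, so that its values here are fitted ones. With FGF2 the difference was -1.91 for ATOH8 and -1.75 for ID3, both of which FGF2 raised in PA6 mono-cultures. For ID4, which FGF2 lowered in the stroma, it was 2.15. The groups of 3 arrays were too small to test single arrays as outliers.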

How the results depend on the processing

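Across 54 member results, 1173 recomputations under 33 alternatives left 1147 with the same direction and side of the threshold. None of the 24 calls was lost under any alternative that tested the gene, and the 6 BMP4 calls in PA6 mono-cultures were among them; ATOH8 could not be tested where detection on all 18 arrays was required, which left 5 members. Gains numbered 12. ID4 gained a call for the BMP4 difference between cultures with quantile (-1.22), spline (-1.21) or median (-1.32) normalization, and without the first co-culture replicate in -GFs (-1.46). The replicate block within each culture did the same for ID4 (-1.22, adjusted p 0.0308) and changed no other member call, while a replicate block shared by both cultures changed none. Bounds moved with the normalization: that of ATOH8 with BMP4 in PA6 mono-cultures ran from 4.48-fold to 10.0-fold, and without background correction those of BMPR2 (1.21-fold), GREM1 (1.63-fold), HEY1 (1.11-fold) and ETV5 (2.32-fold with FGF2, 19.1-fold between cultures) were lower too. Without the fold threshold SMAD6 with FGF2 (-0.87) and ID3 between FGF2 and BMP4 (-0.86) passed in PA6 mono-cultures. ID3 also passed without the third FGF2 replicate (-1.02), and SMAD6 gained a call for the FGF2 difference between cultures without the third co-culture replicate in -GFs (1.07). In co-cultures, the members called between FGF2 and BMP4 ranged from 0 to 1 with 1 array left out, and the 1 was SMAD6 without the first BMP4 replicate.

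Signs turned in 14 recomputations, all of values that were not called. ID2 between cultures without growth factors became -0.072 with the mean of its probes. The others came from leaving out 1 array. ATOH8 ranged from -0.20 to 0.11 between cultures without growth factors and from -0.13 to 0.30 between FGF2 and BMP4 in co-cultures, where ID2 ranged from -0.0099 to 0.78 and ID3 from -0.30 to 0.017. FGF2 in co-cultures gave -0.0034 to 0.38 for ID4 and -0.45 to 0.20 for SMAD6. The FGF2 difference between cultures ran from -0.62 to 0.32 for ID1 and from -0.15 to 0.64 for ID2. The cause of these changes was not tested. SMAD7, BAMBI and ATOH8 without BMP4 or FGF2 were at background, which sets no level for them, and 3 arrays a group left intervals of 0.93 to 1.85 (log2) around the growth factor effects.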
